A study of Oryctolagus cuniculus with 9 samples.

Results

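S9 and S7 are 2 of the 3 sample codes in a rabbit series on urethral repair with a stent made of hydrogel. The comparison set the libraries S9_1, S9_2 and S9_4 against S7_2, S7_3 and S7_4, chosen by the code in the sample title, which is 6 of the 9 libraries in all. Every one of the 28788 gene rows of the count table was considered, and 17102 had enough counts to be tested. The third group, S6, entered only through the shared estimate of spread and is given as a mean beside some genes. All libraries are polyadenylated RNA from rabbit urethral tissue. What S7 and S9 stand for is not given in the sources used here, nor are strain, sex, age, time after surgery, stent, or which code is a control, so a difference below is a difference between codes. No source says that the libraries came from separate animals, and p-values therefore measure only the spread between these libraries, which may be technical.

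The urethra is a tube of stratified and secretory epithelium on a layer of fibroblasts and collagen, surrounded by smooth muscle, vessels and nerve. After injury, neutrophils and macrophages enter the wall, fibroblasts lay down and crosslink collagen, and proteases remodel it while epithelium grows back over the surface. A stricture is a narrowing in which that matrix has become a scar, so genes of inflammation, matrix, muscle and epithelium are the ones usually read in repair of this tissue.

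The 6 libraries held between 35896668 and 36832773 counts each, over 19025 to 19417 genes, so depth hardly differed. The labelled tissue was borne out by its defining markers, since KRT5, KRT13, MYH11, ACTA2, COL1A1 and PDGFRA were well above 0 in each of the 6 libraries. Of skeletal muscle markers, MYH1 and MYH4 were at 0 and ACTA1 was at most 4.96 CPM (read counts relative to library size, scaled by TMM). In a principal component analysis of the 2000 genes that varied most, whose first axis held 33.7% of the variance, S9_1, S9_2 and S9_4 lay on that axis at -45.4, -41.2 and -5.67, and S7_2, S7_3 and S7_4 at -8.05, 73.9 and 26.5. S7_2 thus lay between S9_2 and S9_4 on that axis, and S7_3 stood far from all others. S7_2 correlated with the 3 S9 libraries at 0.948, 0.953 and 0.952 across genes (Pearson's r of log2 CPM), with S7_4 at 0.950 and with S7_3 at 0.932. The mitochondrial gene ATP6 was at 22.3 CPM in S7_3 and 21.5 CPM in S9_4, against at least 1946 CPM in the other 4, so each group holds 1 such library. Not every mitochondrial gene was low there. In FPKM (counts relative to gene length and library total) ND1 was at 6.15 and 4.87 in S7_3 and S9_4, against 562 to 895 in the other 4. CYTB was at 1600 and 1975, against 1277 to 2364. In S7_3 the 10 most abundant genes took 13.6% of the counts, against 7.95% to 9.39% in the other 5.

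**Figure D1:**
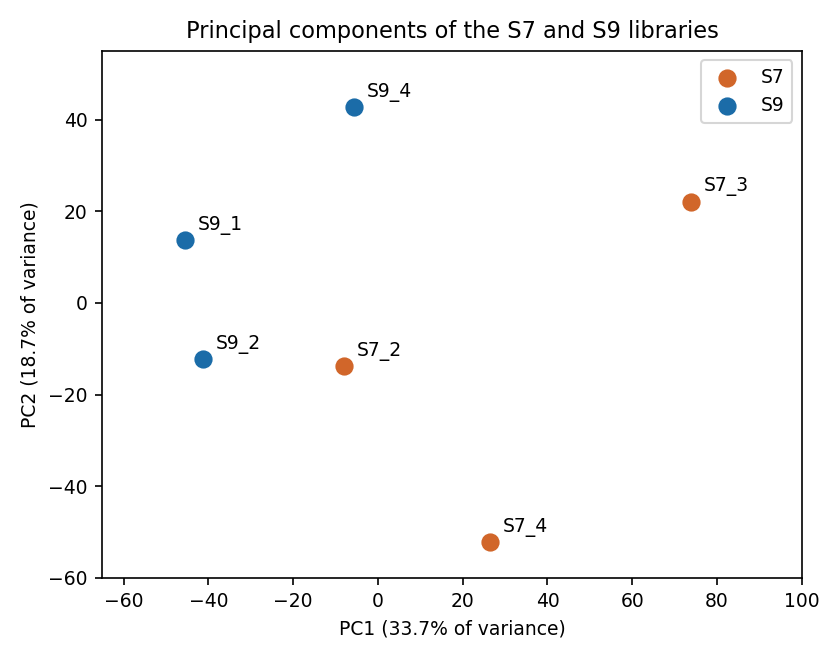
Each point is 1 library, placed by the first (x) and second (y) principal component of log2 CPM, with S9 in blue and S7 in orange. S7_2, at -8.05, lies on the first axis near S9_4, at -5.67, and away from it on the second, while S7_3 lies alone at 73.9.

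The differences between S9 and S7 were large in a small set of named genes, although no gene passed the test. The calcium-binding proteins S100A8, S100A9 and S100A12 were lower in each S9 library than in each S7 library. So were the trefoil peptides TFF1 and TFF2, the collagenase MMP1 and the acute phase protein SAA3. The secretoglobin SCGB3A1 and the hydroxylase CYP1B1 were higher. The quasi-likelihood test of edgeR gave 0 of 17102 genes (0.0%) an adjusted p below 0.05, and the smallest was 0.356. An unadjusted p below 0.05 was found for 1575 genes (9.21%), 710 higher in S9 (4.15%) and 865 lower (5.06%). DESeq2 called 123 genes (0.719%), 28 higher (0.164%) and 95 lower (0.555%), limma-voom called 0 with 3622 genes at an unadjusted p below 0.05, and limma-trend on log2(FPKM + 1) called 0 with 1575.

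All S9 libraries lay above, or all below, all S7 libraries in 2935 genes (17.2%), of which 1429 were higher in S9 (8.36%) and 1506 lower (8.81%). With the authors' FPKM, which divide by the library total and not by a TMM factor, the split was 1960 higher and 1029 lower. S7_3 was the extreme S7 library most often. Among the 1506 lower genes the highest library was S7_3 in 841, S7_4 in 447 and S7_2 in 218, and the S7 library nearest to S9 was S7_2 in 873. Of the 1429 higher genes, S7_3 was the lowest in 781. With fewer libraries the shares of all genes apart rise by construction. The share apart as lower was 18.1% without S7_2, 11.9% without S7_3, 13.5% without S9_2 and 18.7% without S9_4, and the share apart as higher was 18.5% without S7_2 and 19.7% without S9_4. Counts of lists below are to be read against these shares.

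Of the named genes that were higher in every S9 library, CYP1B1 and SCGB3A1 had the largest log2 fold changes. SCGB3A1, a small secreted protein of mucosal epithelium, stood at 99.0, 53.6 and 24.1 CPM in S9_1, S9_2 and S9_4 and at 6.79, 2.02 and 3.92 CPM in S7_2, S7_3 and S7_4. All S9 libraries were above all S7 libraries, at a log2 fold change of 3.79 with SE 0.68 (edgeR adjusted p = 0.538, DESeq2 adjusted p = 9.68e-07), and the S6 mean was 1.02 ± 0.565 CPM (SD, n = 3). CYP1B1, a cytochrome that hydroxylates steroids and foreign compounds, was at 59.7, 51.1 and 9.34 CPM in S9 and 3.66, 1.11 and 3.49 CPM in S7. Its S9 libraries were spread widely, S9_4 being the lowest, yet none overlapped with S7 (log2 fold change 3.86, SE 0.97, edgeR adjusted p = 0.538, DESeq2 adjusted p = 0.00122).

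ABAT, which breaks down the transmitter GABA, was at 14.2, 17.3 and 8.39 CPM in S9 and at 2.97, 2.42 and 3.08 CPM in S7. Here the S7 libraries were close together and the whole gap lay outside their spread (log2 fold change 2.23, SE 0.44, edgeR adjusted p = 0.538, DESeq2 adjusted p = 5.34e-04). CYP2A11, a further cytochrome, was at 724, 936 and 936 CPM in S9 and 195, 186 and 65.3 CPM in S7 (log2 fold change 2.54, SE 1.33). Reads of cytochrome P450 genes can be split between near-identical copies, so the values of CYP2A11 and of CYP2B4 (log2 fold change 2.04) are uncertain.

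The remaining 10 of the 15 largest higher genes were low in S7, with S9 means from 5.04 CPM for the lectin ZG16B to 26.9 CPM for SCG2. DNER, SORCS3 and SCG2 are known from nerve or neuroendocrine cells, but which cells carry them here was not tested. DNER, a neuronal Notch ligand, had a log2 fold change of 2.61, SORCS3, a sorting receptor of neurons, 1.92, and the secretogranin SCG2 1.88. NPPC, the C-type natriuretic peptide, had 3.42 (SE 1.41), resting mainly on 14.4 CPM in S9_2 beside 2.41 and 1.22 CPM in the other S9 libraries. CDK5, ZNF446, the phosphodiesterase PDE11A, PEBP4 and TMEM178B had log2 fold changes from 1.82 to 2.26. CDK5 was barely apart, with 3.39 CPM in S9_1 and 3.36 CPM in S7_2.

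**Figure D2:**
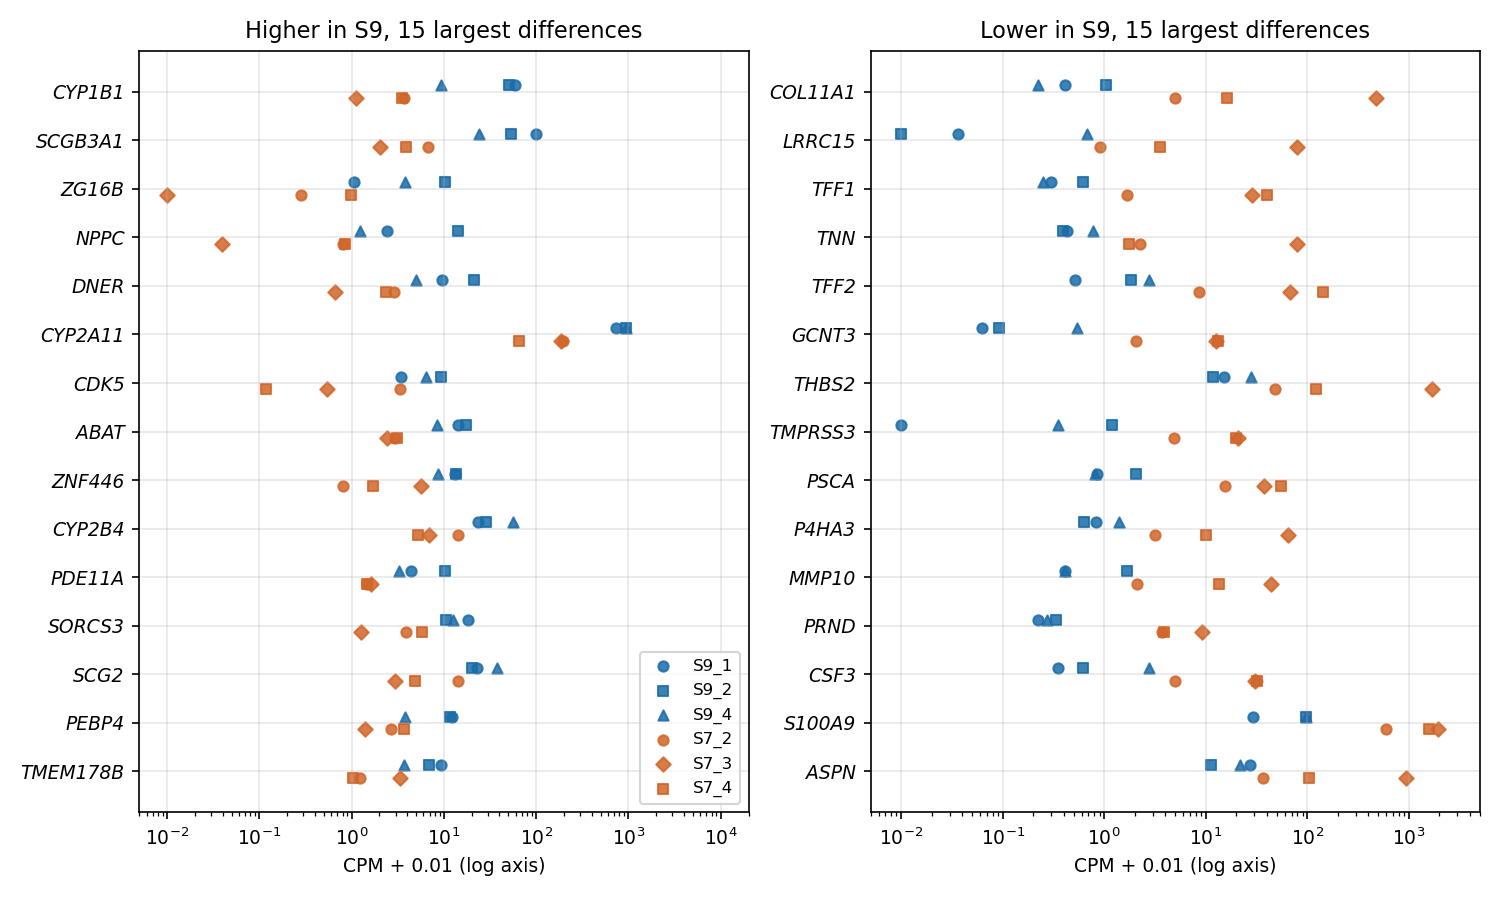
CPM plus 0.01 on a log axis for the 15 genes with the largest difference in each direction among named genes whose groups do not overlap, 1 point per library (S9 blue, S7 orange). In the right panel the diamonds of S7_3 lie far above the other S7 libraries for COL11A1, LRRC15, TNN, THBS2, P4HA3 and ASPN, while for TFF1, CSF3 and S100A9 S7_3 and S7_4 lie close together.

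Calcium-binding proteins abundant in neutrophils were among the lower genes with the smallest p-values. S100A9 was at 29.2, 97.0 and 97.4 CPM in S9 and 594, 1935 and 1586 CPM in S7 (log2 fold change -4.20, SE 0.59, 95% interval -5.55 to -2.85, edgeR adjusted p = 0.356). Its partner S100A8 was at 24.2, 43.2 and 16.3 CPM in S9 and 120, 553 and 405 CPM in S7. S100A12, which binds the receptor RAGE, was at 381, 617 and 406 CPM in S9 and 2197, 4028 and 3333 CPM in S7 (log2 fold change -2.77, SE 0.37, edgeR adjusted p = 0.356). For all 3 genes every S7 library was above every S9 library, S7_2 was the lowest of S7, and the log2 fold change without S7_3 was -3.86, -3.22 and -2.56. DESeq2 gave adjusted p-values of 1.09e-12, 4.97e-09 and 5.75e-12. The S6 means were 3469 ± 778, 1232 ± 343 and 7522 ± 2706 CPM (SD, n = 3).

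Squamous epithelium can make these 3 proteins too. Of 12 neutrophil genes present, 9 were tested, and 3 lay apart, all lower, where 8.81% of all genes did. Those 3 were the genes already given, S100A9, S100A8 and S100A12, so the count adds no further gene. Of the 9 tested, 3 had a log2 fold change above 0. The median log2 fold change of the neutrophil genes was -1.08, against 0.000525 over all genes, and went from -0.66 without S7_4 to -1.71 without S9_2. The count was 6 without S7_2 and 5 without S9_2. MMP8 was at 0 in all 6 libraries, and MPO and CAMP were too low to test. The receptor CXCR2 was at 0.132, 0.356 and 0.106 CPM in S9 and 0.300, 3.77 and 2.86 CPM in S7, so S7_2 overlapped with S9. Lactoferrin (LTF), which glands also secrete, was at 1636, 5680 and 313 CPM in S9 and 2764, 1578 and 772 CPM in S7, so its libraries overlapped. The summed level of the list ran from 837 to 6445 CPM in S9 and from 5680 to 8106 CPM in S7. Nearly all of that sum was LTF and the 3 S100 genes, so it too says little of the other members. LTF alone was 5680 of the 6445 CPM in S9_2. In bulk tissue, fewer cells of a type and less RNA per cell cannot be told apart. How far neutrophils or epithelium carry the S100 difference was not tested.

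Among other mediators of inflammation, CSF3 and IL1A were lower in every S9 library. Of 16 inflammatory cytokines and mediators 4 lay apart as lower and 1 as higher, against 8.81% and 8.36% of all genes, with a median of -1.47. Without S7_2 10 were lower. The growth factor of granulocytes, CSF3, was at 0.344, 0.603 and 2.73 CPM in S9 and 4.97, 30.6 and 32.3 CPM in S7 (log2 fold change -4.20, SE 0.94, edgeR adjusted p = 0.538). IL1A was at 0.609, 0.630 and 0.185 CPM in S9 and 2.97, 16.7 and 1.55 CPM in S7, its size resting on S7_3, since the log2 fold change was -3.89 with it and -2.24 without it. IL1B overlapped, since S9_2 and S7_2 were both near 1.31 CPM. PTGS2, the inducible enzyme of prostaglandin synthesis, was the member that lay higher, at 31.7, 26.02 and 16.7 CPM in S9 and 6.71, 12.3 and 11.9 CPM in S7 (log2 fold change 1.27, SE 0.42). Without S7_3 the list median was -0.84.

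Acute phase genes had 3 of 12 members lower and apart, against 8.81% of all genes, and 6 without S7_2 or 5 without S9_2. The median was -0.42, or -0.66 without S9_2. SAA3, a serum amyloid A, was at 12.04, 10.7 and 5.43 CPM in S9 and 27.4, 107 and 55.6 CPM in S7 (log2 fold change -2.75, SE 0.53, edgeR adjusted p = 0.538, DESeq2 adjusted p = 1.87e-05). The transcription factors CEBPB and CEBPD, which drive acute phase genes, were the other two, at log2 fold changes of -0.46 and -0.38. Copies of serum amyloid A genes are nearly identical, so the split of reads between them is uncertain.

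Of 16 interferon response genes 15 had log2 fold changes below 0 (median -0.44), and 3 lay apart, IFIT3, MX1 and RIGI, at -0.79, -0.69 and -0.68, against 8.81% of all genes lower and apart. The median of the interferon response genes was -0.19 without S7_4 and -0.66 without S9_4, and the count was 8 without S7_2, 5 without S7_3 and 10 without S9_4. IFIT3, an antiviral effector, was at 45.1, 53.4 and 65.9 CPM in S9 and 76.0, 84.1 and 124 CPM in S7. Of 19 macrophage genes 3 lay apart as lower and 1 as higher, against 8.81% and 8.36% of all genes, counts that rest on few genes. Without S7_2 7 were lower, where 18.1% of all genes were, and without S9_4 8 were, where 18.7% were. Without S9_1 6 were higher, where 11.5% of all genes were. The lysosomal CD68 (log2 fold change -1.37, SE 0.34) and the adaptor TYROBP (-1.004) were among the lower 3, and the mannose receptor MRC1 was higher and apart (0.89). CD163, a scavenger receptor of macrophages, overlapped at 30.7 ± 11.3 CPM in S9 and 22.3 ± 7.61 CPM in S7 (SD, n = 3). T and NK cell genes had log2 fold changes below 0 in 14 of 15 and above 0 in 1, with a median of -0.62. Only CD247 lay apart, as lower, against 8.81% of all genes, and CD3E overlapped. The number apart rose to 6 without S7_3, where 11.9% of all genes were lower and apart, and to 7 without S9_4, where 18.7% were. It was 13 in the libraries with high ATP6, where 24.6% of all genes were, and 0 with a length correction.

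Several secretory and mucosal genes of epithelium lay apart as lower, whereas the keratins KRT5 and KRT13 overlapped. The trefoil peptide TFF1, which protects mucosal surfaces, was at 0.291, 0.603 and 0.238 CPM in S9 and 1.66, 28.4 and 40.1 CPM in S7 (log2 fold change -5.94, SE 1.09, edgeR adjusted p = 0.538, DESeq2 adjusted p = 1.45e-09). TFF2 was at 0.503, 1.83 and 2.78 CPM in S9 and 8.59, 67.8 and 142 CPM in S7 (log2 fold change -5.42, SE 1.10). In both, S7_2 was far below S7_3 and S7_4 and still above S9. In GCNT3, a mucin-type glycosyltransferase, the serine protease TMPRSS3 and the surface antigen PSCA, S7_2 was again the lowest of S7, with log2 fold changes of -5.36, -4.90 and -4.87 that were at least as low as -4.61 without S7_3. TFF1 had an S6 mean of 76.7 ± 31.8 CPM (SD, n = 3).

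In the whole list of 15 mucosal secretion genes 5 lay apart as lower, against 8.81% of all genes, and SCGB3A1 as higher. The median was -0.42, or -0.92 without S9_4 and -0.28 without S7_4, and 8 were lower without S9_4. In the same list the immunoglobulin transporter PIGR overlapped at 5470 ± 2260 CPM in S9 and 5340 ± 1018 CPM in S7 (SD, n = 3). Of 16 urothelial genes only PSCA lay apart, as lower, against 8.81% of all genes. Without S7_2 5 were lower and apart, where 18.1% of all genes were, and without S9_4 8 were, where 18.7% were. The basal keratin KRT5 was at 412, 288 and 665 CPM in S9 and 426, 1285 and 544 CPM in S7, and the suprabasal KRT13 at 598, 448 and 1689 CPM in S9 and 1093, 1646 and 1394 CPM in S7, so both overlapped. KRT15, a keratin of basal cells, lay apart as higher, at 1302, 1212 and 1367 CPM in S9 and 1169, 638 and 746 CPM in S7, as did the laminin chain LAMB3 (log2 fold change 0.70, SE 0.17). None of 12 squamous differentiation genes lay apart, but their median was -0.67. Without S9_4 7 lay apart as lower, where 18.7% of all genes did, with a median of -1.54. The median was -0.33 without S9_2.

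A further set of lower genes, picked after their values were seen because they had the smallest p-values, held a transporter, an enzyme and an adhesion molecule. Which cells carry them was not tested. SLC5A1, the sodium and glucose transporter, was at 2.06, 4.66 and 5.37 CPM in S9 and 49.9, 43.9 and 42.3 CPM in S7 (log2 fold change -3.49, SE 0.49, edgeR adjusted p = 0.356, DESeq2 adjusted p = 1.27e-10). Its 3 S7 libraries lay within a narrow range, S7_2 included. XDH, the xanthine dehydrogenase that forms urate, was at 4.10, 15.7 and 16.2 CPM in S9 and 73.3, 92.1 and 101 CPM in S7. The adhesion molecule CEACAM1 had a log2 fold change of -1.97, and its groups did not overlap.

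Several matrix genes were lower in every S9 library, by an amount that rested on S7_3. COL11A1, a minor fibrillar collagen, was at 0.397, 1.04 and 0.212 CPM in S9 and 5.02, 477 and 16.3 CPM in S7, and its log2 fold change was -8.24 (SE 2.38, edgeR adjusted p = 0.538), or -4.26 without S7_3. THBS2, a matricellular thrombospondin, was at 15.2, 11.8 and 27.9 CPM in S9 and 48.1, 1685 and 122 CPM in S7, with -5.08 and -2.20. In each case S7_3 was far above the next library, although S7_2 and S7_4 also lay above S9. LRRC15, a surface protein of activated fibroblasts, the tenascin TNN, the prolyl hydroxylase P4HA3 and the proteoglycan ASPN had the same shape, with log2 fold changes from -6.89 to -4.16 that were -3.26 to -1.80 without S7_3.

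The main collagens overlapped. COL1A1 was at 11370, 14402 and 10568 CPM in S9 and 12560, 35155 and 17579 CPM in S7 (log2 fold change -0.85, SE 0.40, 95% interval -1.74 to 0.05, edgeR adjusted p = 0.554), and -0.31 without S7_3. COL3A1 had a log2 fold change of -0.58, and FN1 of -0.91. Of 11 fibrillar collagen and matrix genes 10 had a negative log2 fold change and 3 lay apart, the collagen VI chains COL6A1, COL6A2 and COL6A3. Over all genes 8.81% lay apart as lower. The list median was -0.91, or -0.31 without S7_3 and -0.21 in the libraries with high ATP6. The count was 5 without S7_2, 5 without S7_4 and 10 without S9_2.

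The next 3 lists stand against 8.81% of all genes lower and apart. Of 15 collagen processing genes 4 lay apart as lower (P4HA3, LOXL2, BMP1 and P4HB), with a median of -0.54, or -0.17 without S7_3 and -0.25 without S9_4, and 7 were lower without S9_2. Small proteoglycans had 3 of 10 lower (5 without S7_2, 2 without S9_1), with LUM, which spaces collagen fibrils, at 783, 968 and 652 CPM in S9 and 1459, 3946 and 1480 CPM in S7. Matricellular genes had 4 of 12 lower (7 without S7_2 and 7 without S9_2), TNC, TNN and THBS2 among them. Decorin (DCN), a further small proteoglycan, had means of 4315 ± 784 in S9 and 3433 ± 692 CPM in S7 (SD, n = 3) and overlapped.

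Of 20 matrix proteases and inhibitors 8 lay apart as lower and 1 as higher, against 8.81% and 8.36% of all genes (median -0.93). Without S7_3 the counts were 8 and 2, where 11.9% of all genes were lower, and the median was -0.32. The collagenase MMP1 was at 0.609, 0.630 and 0.397 CPM in S9 and 1.83, 15.5 and 7.68 CPM in S7 (log2 fold change -3.93, SE 0.74, edgeR adjusted p = 0.538, DESeq2 adjusted p = 3.68e-06). MMP10, a stromelysin, and MMP12, the macrophage elastase, had log2 fold changes of -4.59 and -3.97, while the gelatinase MMP2 overlapped at 884 ± 118 CPM in S9 and 1062 ± 230 CPM in S7 (SD, n = 3).

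**Figure D3:**
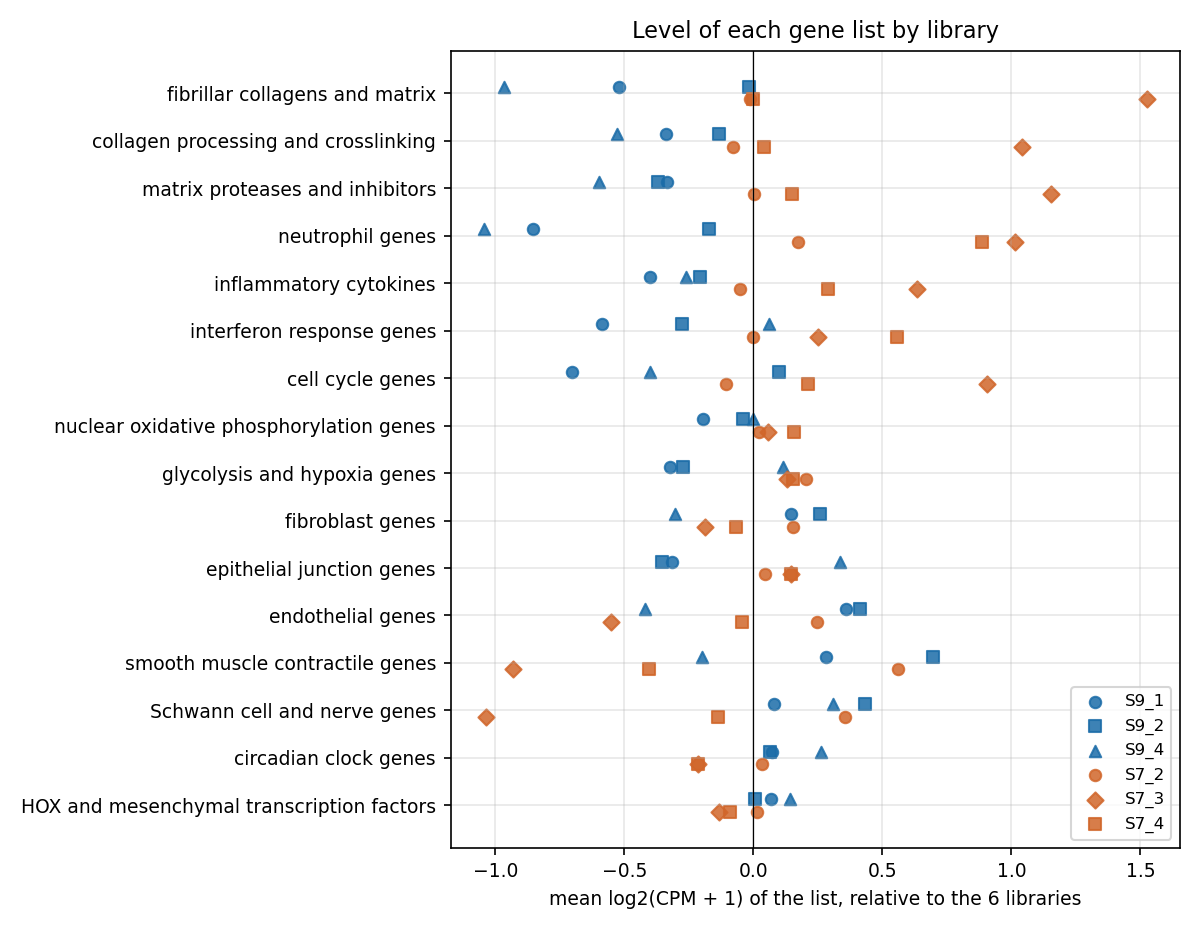
Mean over each list of log2(CPM + 1), relative to each gene's mean over the 6 libraries, with 1 point per library (S9 blue, S7 orange). S7_3 reaches 1.52 for fibrillar collagens, where S7_2 and S7_4 lie at about 0, and smooth muscle genes are at 0.56 in S7_2 but -0.93 in S7_3.

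The log2 fold change was below 0 in all 27 cell cycle genes, with a median of -0.86, or -0.36 without S7_3, and 4 lay apart, including CDC20, FOXM1 and MCM7, against 8.81% of all genes. The count was 18 without S7_2 and 20 without S9_2. MKI67, a marker of cycling cells, was at 2.70, 5.72 and 4.34 CPM in S9 and 4.53, 13.9 and 4.71 CPM in S7, and overlapped. Of 21 glycolysis and hypoxia genes 5 lay apart as lower, against the same share, with PKM, PGK1 and TPI1 at -0.54, -0.54 and -0.45 on the log2 scale. The count was 9 without S7_2 and 12 without S9_4, and the median was -0.38, or -0.25 without S7_3.

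Nuclear genes of oxidative phosphorylation, the respiratory chain and ATP synthase, were apart in 17 of 41, all lower, against 8.81% of all genes. The size was small, with a median of -0.22, and the count was 26 without S7_2. The 95% interval of 40 of the 41 lay within a log2 fold change of -1 and 1. COX5A was at 95.9, 104 and 118 CPM in S9 and 125, 161 and 142 CPM in S7. Gene length moved with this comparison, because Spearman's rho between length and the log2 fold change was 0.229 across 17102 genes, and the median was -0.15 in the shortest 10% of genes and 0.21 in the longest. With a length correction 6 of the 41 lay apart as lower and 1 as higher, with a median of -0.09, and with the authors' FPKM 10 were lower.

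Among lists with at least 10 tested members, clock genes had the largest share apart as higher. Of 19 genes 8 lay apart, all higher, against 8.36% of all genes, with a median of 0.38. NR1D2, a repressor in the clock loop, was at 171, 146 and 169 CPM in S9 and 114, 77.1 and 73.9 CPM in S7 (log2 fold change 0.87, SE 0.43, edgeR adjusted p = 0.562). The output factor TEF was at 204, 227 and 223 CPM in S9 and 183, 86.0 and 101 CPM in S7, and NR1D1 and PER1 had log2 fold changes of 1.08 and 0.71. The core activators did not lie apart, with CLOCK at 0.21 and BMAL1 at -0.17. The count was 8 without S7_3 and 6 with a length correction.

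Patterning factors of the lower tract had 6 of 24 members higher and 1 lower, against 8.36% and 8.81% of all genes, and 13 higher without S7_2 or 10 without S9_4. ISL1, a factor of genital and urethral mesenchyme, was at 41.6, 38.2 and 40.6 CPM in S9 and 30.8, 22.1 and 25.9 CPM in S7 (log2 fold change 0.61, SE 0.20, edgeR adjusted p = 0.538). HOXD12 was at 0.62 on the log2 scale and HOXC10, the member that was lower, at -1.03. Complement and coagulation genes had 5 of 18 higher, against 8.36% of all genes, led by the terminal component C7 at 265, 367 and 214 CPM in S9 and 176, 19.7 and 47.0 CPM in S7. Without S7_3 that list had 5 higher and 5 lower, and its median went from 0.27 to 0.03, or 0.099 without S9_2.

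**Figure D4:**
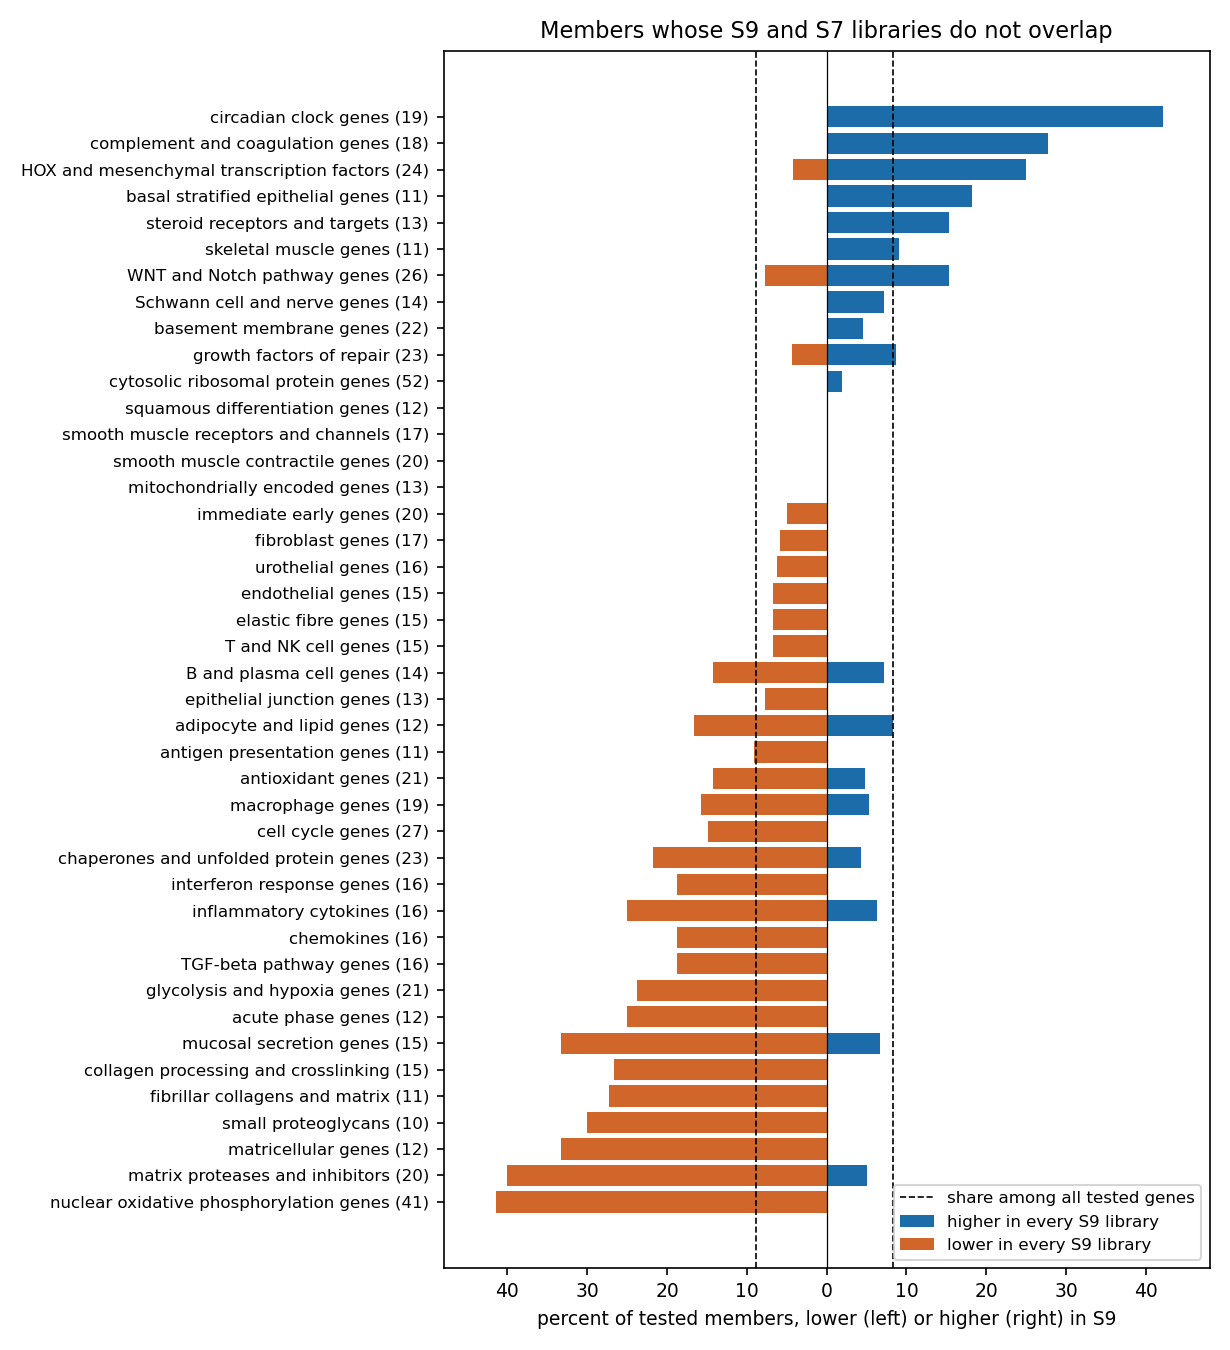
Bars give, for each list with at least 10 tested members (number in brackets), the percent of members with every S9 library above (blue, right) or below (orange, left) every S7 library. Dashed lines are the shares among all tested genes, 8.36% and 8.81%; the longest bars are 17 of 41 oxidative phosphorylation genes on the left and 8 of 19 clock genes on the right.

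Of 26 WNT and Notch genes 4 were apart as higher and 2 as lower, against 8.36% and 8.81% of all genes, so the lower count was near the background and the higher one rests on few genes. WNT2, a ligand of mesenchyme, was at 4.98, 3.64 and 5.82 CPM in S9 and 17.5, 13.03 and 9.75 CPM in S7 (log2 fold change -1.48, SE 0.34, DESeq2 adjusted p = 0.00882). WNT4 went the other way, at 97.8, 53.6 and 69.4 CPM in S9 and 44.6, 25.7 and 42.9 CPM in S7. Neither gene's groups overlapped, and in both the edgeR adjusted p was 0.538. In the TGF-beta pathway 3 of 16 lay apart, all lower, against 8.81% of all genes. Yet 10 of the 16 had a log2 fold change above 0, and the list median was 0.02. INHBA, 1 of the 3, rested on 39.3 CPM in S7_3 beside 4.77 and 2.86 CPM. TGFB1 itself overlapped at 21.5 ± 2.79 CPM in S9 and 27.3 ± 6.28 CPM in S7 (SD, n = 3).

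Likeness was read from the 95% interval of the log2 fold change, since a missed threshold does not show it. The interval lay within -1 and 1 in 8456 genes (49.4%) and within -0.5 and 0.5 in 2448 (14.3%). Of the 2067 genes with a mean of at least 100 CPM, 1601 (77.5%) lay within -1 and 1. Among the 12 abundant genes whose interval reached least far from 0 were the RNA polymerase subunit POLR2B, the splicing helicase DDX23, the dynactin subunit DCTN1, the kinase AKT2 and TSC2, a brake on mTOR signalling. POLR2B was at 113, 117 and 130 CPM in S9 and 118, 124 and 118 CPM in S7 (95% interval -0.25 to 0.25).

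Cytosolic ribosomal proteins were alike in level, with 48 of 52 intervals within -1 and 1 and a median of 0.09, and RPS27A alone lay apart. With a length correction 13 of the 52 lay apart, all higher, with a median of 0.23. In the libraries with high ATP6, 2 against 2, 38 of them lay apart as higher, where 24.1% of all genes did, and without S9_4 36 did, where 19.7% of all genes did. Among growth factors of repair VEGFB had means of 103 ± 9.61 in S9 and 103 ± 12.5 CPM in S7, with an interval from -0.33 to 0.32, and PDGFRB, the receptor of pericytes and fibroblasts, had -0.49 to 0.23 (SD, n = 3). STAT3, a transducer of cytokine signals, had -0.47 to 0.38.

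In smooth muscle genes S7_2 and S7_3 lay far from each other. The myosin heavy chain of smooth muscle, MYH11, was at 4594, 5609 and 2886 CPM in S9 and 4366, 852 and 1887 CPM in S7, a log2 fold change of 0.88 with an interval from -0.43 to 2.19. S7_2 was as high as S9_1, and S7_3 was the lowest. None of 20 contractile genes and none of 17 receptors and channels of smooth muscle lay apart, with 8 and 2 intervals within -1 and 1, against 49.4% of all genes. Without S7_2 15 and 10 of them lay apart as higher, where 18.5% of all genes did, and without S9_4 4 and 9. PECAM1, the endothelial adhesion molecule, overlapped and was alike by its interval from -0.66 to 0.47. Of 15 endothelial genes 8 had intervals within -1 and 1, near that share. Only KDR lay apart, at -0.41, against 8.81% of all genes lower and apart. Without S9_4 6 were higher and apart, where 19.7% of all genes were. Of 14 Schwann cell and nerve genes 1 lay apart, as higher, against 8.36% of all genes, and 0 did with DESeq2 size factors. The median of the Schwann cell and nerve genes was 0.46, or 0.15 without S7_3 and 0.93 without S7_2, where 9 lay apart as higher, and the count was 5 without S9_1 and 4 without S9_4.

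**Figure D5:**
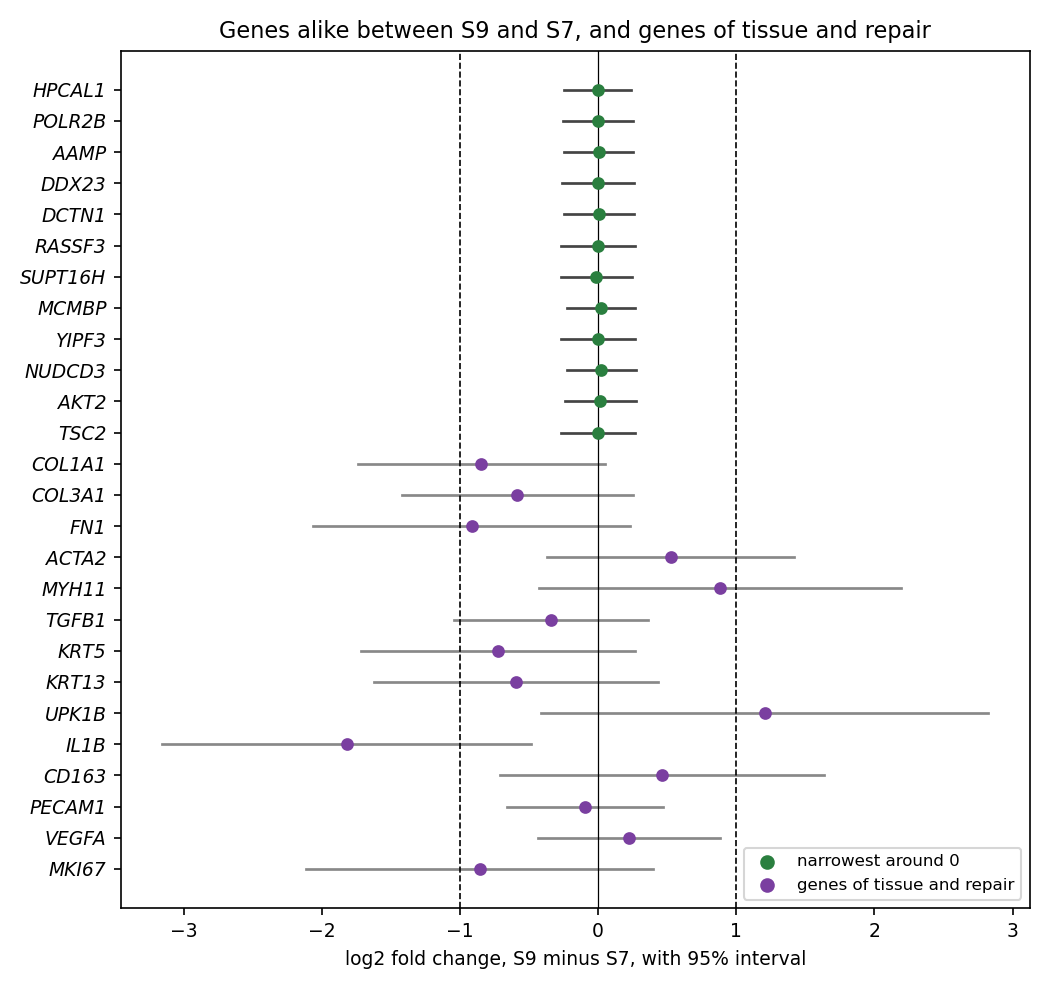
Points give the log2 fold change of S9 minus S7 and lines its 95% interval, for the 12 abundant genes whose interval reaches least far from 0 (green) and for 14 genes of tissue and repair (purple). The first 12 lie well within the dashed lines at -1 and 1, whereas among the purple genes the intervals of PECAM1 and VEGFA alone do.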

How the data were processed

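Polyadenylated RNA of rabbit urethral tissue was sequenced by the authors. The deposited counts are unnormalized whole reads for each gene. The submitters' processing notes name fastp, HISAT2 and HTSeq without versions. No build, annotation or strand setting is stated in the labels or headers, so antisense and overlapping genes cannot be told apart. The authors also deposited FPKM, made from the same counts (172953 of 172961 values above 0 gave a whole gene length within a relative tolerance of 1e-06).

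Of 12867 rows with a LOC number, 8417 were found in the RefSeq table (assembly mOryCun1.1) and 515 received a symbol, among them CYP1B1, CDK5, ZNF446, COX5A and MMP10. No sequence or coordinate was used.

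The 9 libraries were fitted in 1 model with 3 group means (edgeR 4.0.16, R 4.3.3; filterByExpr with a minimum count of 10 and total of 15, TMM, robust quasi-likelihood), which left 6 residual degrees of freedom. The contrast was S9 minus S7, adjusted by Benjamini-Hochberg over 17102 genes at a threshold of 0.05. The biological coefficient of variation was 41.9%. Standard errors came from the F statistic. Groups of 3 against 3 cannot reach an exact two-sided permutation p below 0.1, so non-overlap is given as a description, as are lists. The fit was also run on simulated counts, drawn around the mean of each gene with its fitted spread and with changes added in S9. That simulation held no library set apart like S7_3, so it does not show how the fit behaves with such a library.

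Named genes were the 15 largest differences in each direction among genes with a symbol, a higher-group mean of 5 CPM or more and no overlap, the 12 genes of at least 100 CPM with intervals nearest 0, from each of 47 gene lists the first 2 tested members, the member of highest level and up to 3 non-overlapping members of largest difference, and 14 fixed genes. CXCR2, SLC5A1, XDH and CEACAM1 were named after their values were seen, as were the genes of the closing observations. The comparison, lists and rules were chosen with earlier results of these data known. Alternatives were other scalings and filters, DESeq2 1.42.0, limma-voom and limma-trend (limma 3.58.1), a replicate block, S7 and S9 alone, the libraries with high ATP6, a term for low ATP6, a spline on gene length with 5 degrees of freedom, and each library left out.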

Additional observations from a re-analysis of the deposited data

How the results depend on the processing

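With edgeR or limma on all 9 libraries, on S7 and S9 alone, and under each scaling, filter and length setting run, 0 genes were called. DESeq2 called 123, of which 115 lay apart and 123 had an unadjusted edgeR p below 0.05, and the 6 libraries with high ATP6 gave 1 (PLEKHA4). Leaving out 1 library gave 0 to 1, the single genes being TFF1 without S7_2 and RPL34 without S9_2. The unadjusted count fell from 1575 to 806 without S7_3, 1063 without S7_4, 713 without S9_1 and 1087 without S9_2, and rose to 2412 without S7_2. Genes whose S9 and S7 libraries do not overlap numbered 8395 in the libraries with high ATP6, where 2 libraries face 2, and 2975 to 6750 with 1 library left out; fewer libraries overlap less. Intervals within -1 and 1 numbered 13705 with limma-trend on log2(FPKM + 1), a scale that shrinks low genes, and 7186 to 8892 with 1 library left out. With a replicate block 0 genes were called and 709 had an unadjusted p below 0.05. VEGFA, which lay apart as higher, had a log2 fold change of -0.00191 under the block. The block also moved list medians, in both directions. It took fibrillar collagens from -0.91 to -0.39, oxidative phosphorylation from -0.22 to -0.07 and macrophage genes from -0.38 to 0.09. Mucosal secretion genes went from -0.42 to -1.03. Deviations from the group means correlated at 0.064 between S7_2 and S9_2 and at 0.020 between S7_4 and S9_4, which share a number. For same-number pairs with S6 the values were 0.138 (S6_2, S7_2), 0.132 (S6_3, S7_3), 0.127 (S6_4, S9_4), 0.023 (S6_4, S7_4) and -0.065 (S6_2, S9_2). Pairs of different number, from different groups, ran from -0.178 (S6_2, S7_3) to 0.103 (S7_3, S9_4). Whether the numbers pair the libraries is not stated in the labels and was not tested. Of 126 named genes that lay apart, VEGFA under the block was the only sign change in these alternatives. Since the groups of these genes do not overlap, leaving out a library or rescaling could hardly reverse a sign, so the count is no measure of robustness. For 118 named genes that overlapped no direction is claimed, and 41 of them changed sign under some alternative. Over the alternatives 70 list medians, from 30 lists, moved by more than the spread between libraries.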

Other observations

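Some genes fell into separate levels that cut across the codes. LDHA, the muscle form of lactate dehydrogenase, was at 0.794 and 0.876 CPM in S9_1 and S9_2 and 2.07 CPM in S7_3, but at 65.9 CPM in S9_4 and 70.7 and 84.2 CPM in S7_2 and S7_4. PDIA4, a chaperone of the endoplasmic reticulum, was at 1.40 CPM in S7_3 and between 59.3 and 172 CPM in the other 5 libraries. Neither gene separates S9 from S7.

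The immediate early genes FOS and EGR1 ranged widely within S9 and overlapped with S7. FOS was at 179, 31.4 and 6.14 CPM in S9_1, S9_2 and S9_4 and at 15.8, 24.6 and 32.2 CPM in S7, and EGR1 at 134, 32.4 and 15.1 CPM in S9. Of 20 tested immediate early genes 1 lay apart, as lower, against 8.81% of all genes.

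Globin genes HBA and HBB2 lay higher in S9, with HBB2 at 268, 252 and 400 CPM in S9 and 146, 110 and 225 CPM in S7. In the authors' FPKM HBA overlapped, at 361 in S7_4 and 357 in S9_2. The adipokine ADIPOQ overlapped, at 131, 154 and 306 CPM in S9 and 396, 258 and 366 CPM in S7. CNTN1, a neural adhesion molecule, and the splicing factor RBM25 were apart as higher and were called by DESeq2, with adjusted p-values of 0.0325 and 0.00412 and log2 fold changes of 1.15 and 0.70.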
